A study of Mus musculus with 9 samples.

Results

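The 31 genes described here are p53 itself (Trp53) and 30 genes of its pathway, most of them known to be transcribed under p53 control. They were chosen by name: every probe of the array that is not a control spot and carries the name of a member was read, which gave 41 probes for 31 of 31 members. Of these, 29 members were measured, among 19913 genes measured in all. The other two, Fas and Rrm2b, did not lie well above background on all 3 arrays of any group and are given below as undetected.

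The study compared mouse embryonic stem (ES) cells in 3 states of Xpc, the gene of a damage-recognition protein of nucleotide excision repair, with 3 arrays in each group. Floxed cells (Xpc_f/f-Tx) carry loxP sites around Xpc sequence and had not lost it. Induced cells (Xpc_f/f+Tx_day4) are the same genotype 4 days after deletion was induced through the Cre-loxP system. Null cells (Xpc_KO) are a subclone that lacks Xpc constitutively. The labels name no induced group with intact Xpc, so effects of induction itself and of the deletion cannot be told apart. The null group is 1 subclone, so a feature of that subclone cannot be told apart from the loss of Xpc. The labels do not say what Tx stands for, which part of Xpc is deleted, or whether the arrays of a group come from separate cultures. The p-values therefore measure the spread between these samples, which may be technical.

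p53 is a transcription factor that is held at a low level by the ubiquitin ligase Mdm2 and its partner Mdm4, and that becomes stable and active when DNA is damaged. It then raises the transcription of genes for cell cycle arrest, apoptosis, DNA repair and metabolism, and of genes that damp it in turn, among them Mdm2. ES cells have abundant p53 and divide quickly, with a short G1 phase. Xpc is itself counted among p53 targets.

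p53 binds DNA through pairs of a 10-base half-site whose consensus is known as the p53 half-site (its reverse complement is the same motif, so 1 search reads both strands). The promoter sequences of RefSeq, assembly GRCm38.p6, from 250 bases before to 50 after each gene's start, held 33 windows for 25 members, and 6 members had none there (Perp, Pmaip1, Rrm2b, Tnfrsf10b, Trp53inp1 and Zmat3). The half-site was found in 13 of these 25 members (52.0%), and in 9.6% of all 27025 genes. A pair of half-sites at most 13 bases apart was found in 24 of all 32851 windows (0.07%), and among the members in Cdkn1a alone. That pair lies at chr17:29090906-29090937 on the plus strand, 73 to 42 bases before a start of the gene. The 10 bases directly after it miss the half-site pattern by 1 base, so the search, which took exact matches only, did not pair them with its downstream half-site. The pair is shown because it is the only pair of exact matches among the members, with the half-sites in capitals and the spacer of 12 bases in lower case.
Cdkn1a: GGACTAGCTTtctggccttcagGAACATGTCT

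Single half-sites of members with other roles are printed with 10 bases on each side, so that the letters can be compared, and capitals mark the half-site. They lie at chr11:69580274-69580303 (plus strand) for Trp53, chr10:117710925-117710954 (minus) for Mdm2, chr11:40755452-40755481 (minus) for Ccng1, chr7:45467080-45467109 (minus) for Bax, chr10:41887256-41887285 (plus) for Sesn1 and chr3:137623572-137623601 (plus) for Ddit4l.
Trp53: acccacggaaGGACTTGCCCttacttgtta
Mdm2: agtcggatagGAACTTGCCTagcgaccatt
Ccng1: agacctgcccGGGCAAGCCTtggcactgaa
Bax: agcatatcccAGGCAAGCTTtgaacttgcg
Sesn1: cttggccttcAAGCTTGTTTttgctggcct
Ddit4l: caactcccagGGGCTTGCCTgggcccctgc

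A half-site is a match of letters, not a measured binding site. The 13 members with one had a median difference of -0.13 (log2, null minus floxed), and the 11 measured members whose windows had none had a median of -0.15. The members that passed the test below, Plk2 and Dcxr, were both among those with a window and no half-site in it. The search read these windows alone and took exact matches only, so sites elsewhere or with a mismatch were not seen. It cannot sort members by p53 control, which was not tested for Plk2, Dcxr or any other member.

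Total RNA was labelled with Cy3, 50 ng per sample, and hybridised to 1 Agilent array each. Between 47.4% and 57.9% of non-control spots lay well above background and 0 were saturated; the number of arrays, 9, limits the precision. Values below are log2 of the processed spot intensity minus log2 of the array's 75th percentile, so 0 is the 75th percentile and 1 unit a doubling. A level of one gene cannot be set against that of another on an array, since probes differ in brightness. Xpc lay lower on every induced and null array than on every floxed one: the difference was -1.38 ± 0.20 (SE, n = 3 against 3; 38.4% of the floxed level, limma adjusted p = 0.224, or 0.0319 without floxed array 3) in induced and -1.68 ± 0.20 (31.1%, adjusted p = 0.00584) in null cells. The 8 stem cell markers (Pou5f1, Sox2, Nanog and 5 others) were well above background on all 9 arrays.

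One array stood apart. Floxed array 3 correlated with floxed arrays 1 and 2 at r = 0.986 (across genes, which are not independent replicates) and with the 3 null arrays at 0.991 to 0.993, while its Xpc value, 0.16, lay above all induced and null values. It shared slide 2 with null array 3, whereas floxed arrays 1 and 2 made up slide 1 and the induced arrays and null arrays 1 and 2 slide 3. No slide held both floxed and induced cells, so a slide effect in that comparison is separated from the group only through the null arrays. With slide as a fixed block, null minus floxed is null array 3 minus floxed array 3 alone, 1 array against 1. Null minus induced then rests on slide 3 alone. Without floxed array 3, or without the slide 2 arrays, no slide held both floxed and null cells. A slide effect cannot be told apart from the group in those null minus floxed values. Calls of members, and counts of calls in other lists, that change without floxed array 3 are given both ways. Of the 8 stem cell markers 7 had lower means in null than in floxed cells (median -0.16, or 0.12 with slide as a fixed block) and 0 passed by limma, 1 with an unadjusted p under 0.05. Without floxed array 3 their median was -0.40 and 5 passed as lower (Sox2, Nanog, Klf4, Esrrb and Zfp42), where 11.8% of all genes did. In null against induced cells 5 of 8 lay lower without overlap, where 18.3% of all genes did, and the part of this in the members' differences was not tested.

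Induced deletion for 4 days gave no member that passed the test, where 0.00502% of all genes passed. Xpc itself did not pass there either (limma adjusted p = 0.224). In the null subclone Plk2 and Dcxr fell to 66.1% of their floxed level, and Dcxr was also lower than in induced cells. Cdkn1a, Mdm2, Phlda3, Ccng1, Perp, Eda2r and Ppm1d had null values below every floxed array, as 11.4% of all genes did, without passing the test over all genes. For Eda2r this held for its brighter probe only. The group means of Trp53 itself lay within 0.09 of each other.

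**Figure D1:**
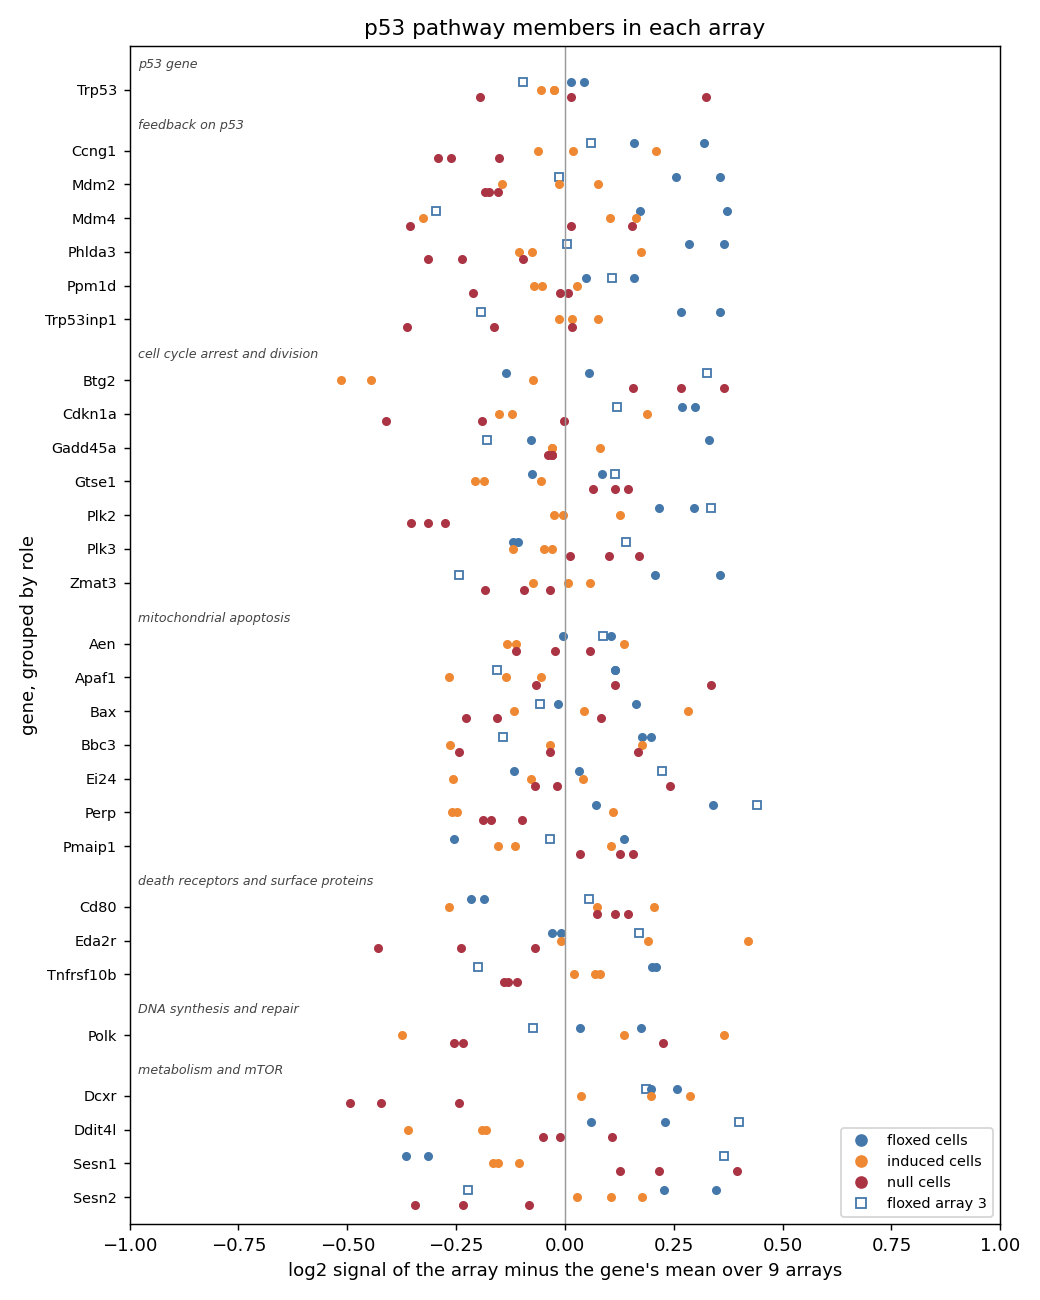
Log2 signal of each array minus the gene's own mean over 9 arrays (horizontal axis) for the 29 measured members, grouped by role; colours mark floxed, induced and null cells and the open square is floxed array 3. For Plk2 and Dcxr the null points lie to the left of all the others, while for Trp53 the 3 groups lie over one another.

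Trp53, which encodes p53, was measured by a probe at chr11:69404204-69404263 of mm9, plus strand, printed here because every statement on p53 RNA rests on it.
Trp53 probe: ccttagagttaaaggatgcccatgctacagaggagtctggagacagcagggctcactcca

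Trp53 read 1.69, 1.66 and 1.55 on floxed arrays 1 to 3, 1.59, 1.62 and 1.62 on induced arrays, and 1.66, 1.97 and 1.45 on null arrays. The null arrays held both the highest and the lowest value of all 9, so the groups overlapped. The difference was -0.03 in induced cells (95% interval -0.33 to 0.27, limma adjusted p = 0.995) and 0.06 ± 0.13 in null cells (SE, adjusted p = 0.820), both against floxed cells. Arrays measure RNA, and p53 is known to be controlled largely at the level of the protein, which was not measured.

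Of all measured members, 0 of 29 passed in induced against floxed cells (adjusted p under 0.05, limma), where 0.00502% of all genes passed. Without adjustment 4 members, all lower, had a p under 0.05, against 5.91% of all genes. The null against floxed comparison gave 2 of 29, both lower, where 1.84% of all genes passed, 1.1% as lower and 0.738% as higher; 7 members had an unadjusted p under 0.05, against 22.8%. Null against induced cells gave 1 of 29, lower, where 2.2% of all genes passed, 1.54% as lower and 0.658% as higher; 7 had an unadjusted p under 0.05, against 23.9%. Both comparisons of floxed cells share the same floxed arrays, and both of null cells the same null arrays.

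Most differences from floxed cells were small and below 0. In induced cells 25 of 29 members had a lower mean than in floxed cells, with a median difference of -0.11, where 50.2% of all genes were lower and their median was 0.00. In null cells 20 of 29 were lower, with a median of -0.15 against 0.01 over all genes, of which 48.2% were lower. Between null and induced cells 17 of 29 were lower in null, with a median of -0.05 against 0.02 over all genes, of which 46.6% were lower. Array by array, the median deviation of the members from their own means was 0.07, 0.18 and 0.05 on floxed arrays, 0.08, -0.10 and -0.03 on induced arrays and -0.07, -0.01 and -0.13 on null arrays. For the members, induced array 1 lay with the floxed arrays and the other induced arrays with the null ones. Over all genes the medians were -0.03, 0.00 and 0.03 on floxed arrays, 0.05, -0.02 and -0.02 on induced arrays and -0.03, 0.02 and 0.03 on null arrays. Induced array 1 was thus the highest over all genes as well, and the part of this in the members' median was not separated.

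Groups that did not overlap were counted too, with each gene read from its brightest probe. The other probe of Eda2r overlapped in both comparisons of null cells. In induced against floxed cells 3 members lay lower on every array (Plk2, Ddit4l and Ppm1d) and 0 higher, where 12.9% of all genes were without overlap in either direction, 6.26% lower and 6.63% higher. In null against floxed cells 9 lay lower on every array (Cdkn1a, Mdm2, Ccng1, Phlda3, Perp, Eda2r, Plk2, Dcxr and Ppm1d) and 1 higher (Cd80), where 23.4% of all genes were without overlap, 11.4% lower and 12% higher. In null against induced cells 8 were lower (Mdm2, Ccng1, Gadd45a, Eda2r, Plk2, Tnfrsf10b, Dcxr and Sesn2) and 5 higher (Btg2, Plk3, Sesn1, Ddit4l and Gtse1), where 37.2% of all genes were without overlap, 18.3% lower and 19.0% higher.

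**Figure D2:**
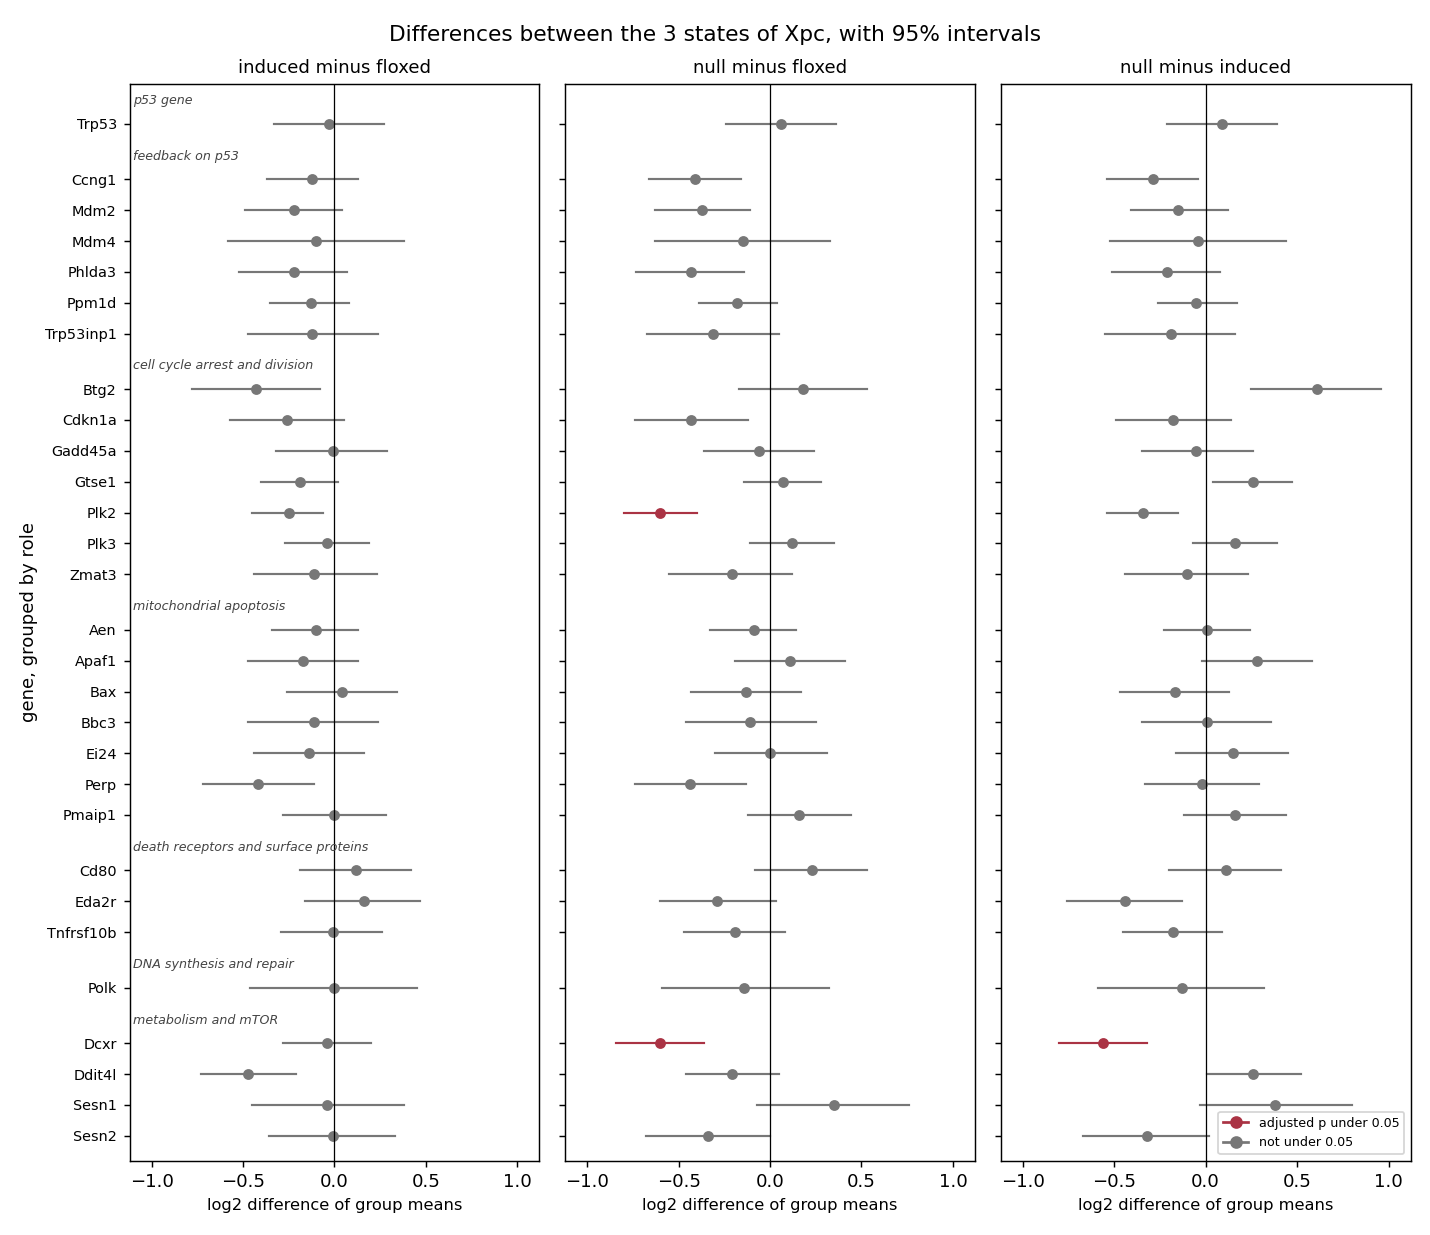
Differences of group means on the log2 scale (horizontal axis) with 95% intervals, for the 29 measured members in 3 comparisons; red marks an adjusted p under 0.05. Plk2 and Dcxr are red at -0.60 in null minus floxed cells and Dcxr at -0.56 in null minus induced cells, and every interval of induced minus floxed cells is grey.

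Among the feedback genes, Mdm2 encodes the ligase that marks p53 for degradation, Mdm4 its partner, Ppm1d a phosphatase that removes damage-induced phosphates, and Ccng1 (cyclin G1), Phlda3 (an inhibitor of Akt) and Trp53inp1 are further p53 targets that act back on p53 or on survival signals. All 6 had lower means in null than in floxed cells, with a median of -0.34 and a range of -0.43 to -0.15, and 0 of 6 passed.

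Mdm2 read 5.14, 5.24 and 4.87 on floxed arrays, 4.96, 4.74 and 4.87 on induced arrays and 4.71, 4.73 and 4.70 on null arrays. Every null array lay below every floxed and every induced one, and floxed array 3 lay among the induced values. The difference between null and floxed cells was -0.37 ± 0.12 (SE, adjusted p = 0.120), and that between induced and floxed cells -0.22 ± 0.12 (adjusted p = 0.900). Without floxed array 3 the first was -0.48 (adjusted p = 0.00865), and on slide 2 alone, null array 3 minus floxed array 3, it was -0.17.

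Phlda3 read 4.72, 4.80 and 4.44 on floxed arrays, 4.61, 4.33 and 4.36 on induced arrays and 4.12, 4.34 and 4.20 on null arrays. All null values lay below all floxed ones, and null array 2 reached into the induced range. Its null minus floxed difference was -0.43 ± 0.13 (SE, adjusted p = 0.110) and -0.54 without floxed array 3 (adjusted p = 0.0130). Ccng1 had a null minus floxed difference of -0.41 ± 0.11 (adjusted p = 0.0898), which was -0.47 without floxed array 3 (adjusted p = 0.0172) and -0.35 on slide 2 alone. Mdm4 was the member of this group that turned with the array: -0.15 over all arrays, -0.34 without floxed array 3 (adjusted p = 0.240) and 0.46 on slide 2.

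Among the genes of arrest and division, Cdkn1a encodes p21, the inhibitor of cyclin-dependent kinases through which p53 stops the cycle. Cdkn1a read 1.04, 1.01 and 0.86 on floxed arrays, 0.93, 0.59 and 0.62 on induced arrays and 0.33, 0.74 and 0.55 on null arrays. Every null value lay below every floxed value, and induced array 1 lay within the floxed range. The differences were -0.43 ± 0.14 (SE, adjusted p = 0.123) for null and -0.26 (95% interval -0.57 to 0.05, adjusted p = 0.914) for induced against floxed cells. Without floxed array 3 the null difference was -0.49 (adjusted p = 0.0462), and on slide 2 alone -0.31.

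A second Cdkn1a probe, annotated to another RefSeq transcript of the gene than the probe above, showed a wider gap at a far lower signal. It lies at chr17:29227986-29228045 of mm9, the most upstream of the gene's 3 probes, and read -2.48, -2.34 and -2.70 on floxed arrays and -2.44, -2.69 and -3.07 on induced arrays. On null arrays it read -3.91, -5.56 and -3.57 and was not well above background on any of the 3. The probe was thus kept only through the floxed and induced groups, where it is high. Its signal was at least 2.09-fold higher in floxed than in null cells, where each null array was given at least the lowest level that counted as well above background on it. When each of 27536 probes was tested on its own, a choice made after the data were seen, null against floxed cells had an adjusted p of 0.0836 for this probe, from null values that were not above background, and did not pass. In that test 1.44% of all probes passed, and 2 of the members' 37 kept probes, those of Plk2 and Dcxr already used. The third Cdkn1a probe was well above background on 0 of 9 arrays.

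Plk2 encodes a Polo-like kinase of early G1 and centriole duplication. It read -0.67, -0.59 and -0.55 on floxed arrays, -0.76, -0.89 and -0.91 on induced arrays and -1.24, -1.20 and -1.16 on null arrays. The 3 groups followed each other without overlap, floxed highest and null lowest. Plk2 fell by 0.60 on the log2 scale in null against floxed cells (95% interval -0.80 to -0.40, adjusted p = 0.0159; 0.00294 to 0.179 over the alternatives). The steps from floxed to induced, -0.25 ± 0.09 (SE, adjusted p = 0.673), and from induced to null, -0.34 ± 0.09 (adjusted p = 0.0799), did not pass. On slide 2 alone the null minus floxed difference was -0.61, and on slide 3 alone null minus induced was -0.36.

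Btg2, an antiproliferative gene, went the other way between null and induced cells. It read -0.56, -0.37 and -0.10 on floxed arrays, -0.50, -0.94 and -0.87 on induced arrays and -0.16, -0.06 and -0.27 on null arrays. Every null array lay above every induced one, and the floxed arrays overlapped both. Null minus induced was 0.61 ± 0.16 (SE, limma adjusted p = 0.0819). With slide as a fixed block, which reads this comparison from slide 3 alone, it was 0.66 and passed (adjusted p = 0.0284). In that fit 4 members passed, Btg2, Dcxr, Plk2 and Sesn1, where 16.3% of all genes did. Btg2 passed without floxed array 3 as well (adjusted p = 0.0193). Induced minus floxed was -0.43 (adjusted p = 0.719).

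The other members of the arrest group were Gadd45a and Zmat3, known growth-arrest genes, Plk3, a stress-response Polo-like kinase, and Gtse1, a G2 and S phase protein that binds p53. Their null minus floxed differences ranged from -0.21 (Zmat3) to 0.12 (Plk3), and none of these 4 passed. Gadd45a read 1.37, 1.36 and 1.37 on the null arrays but 1.32, 1.73 and 1.22 on the floxed ones, so its spread lay in the floxed cells.

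**Figure D3:**
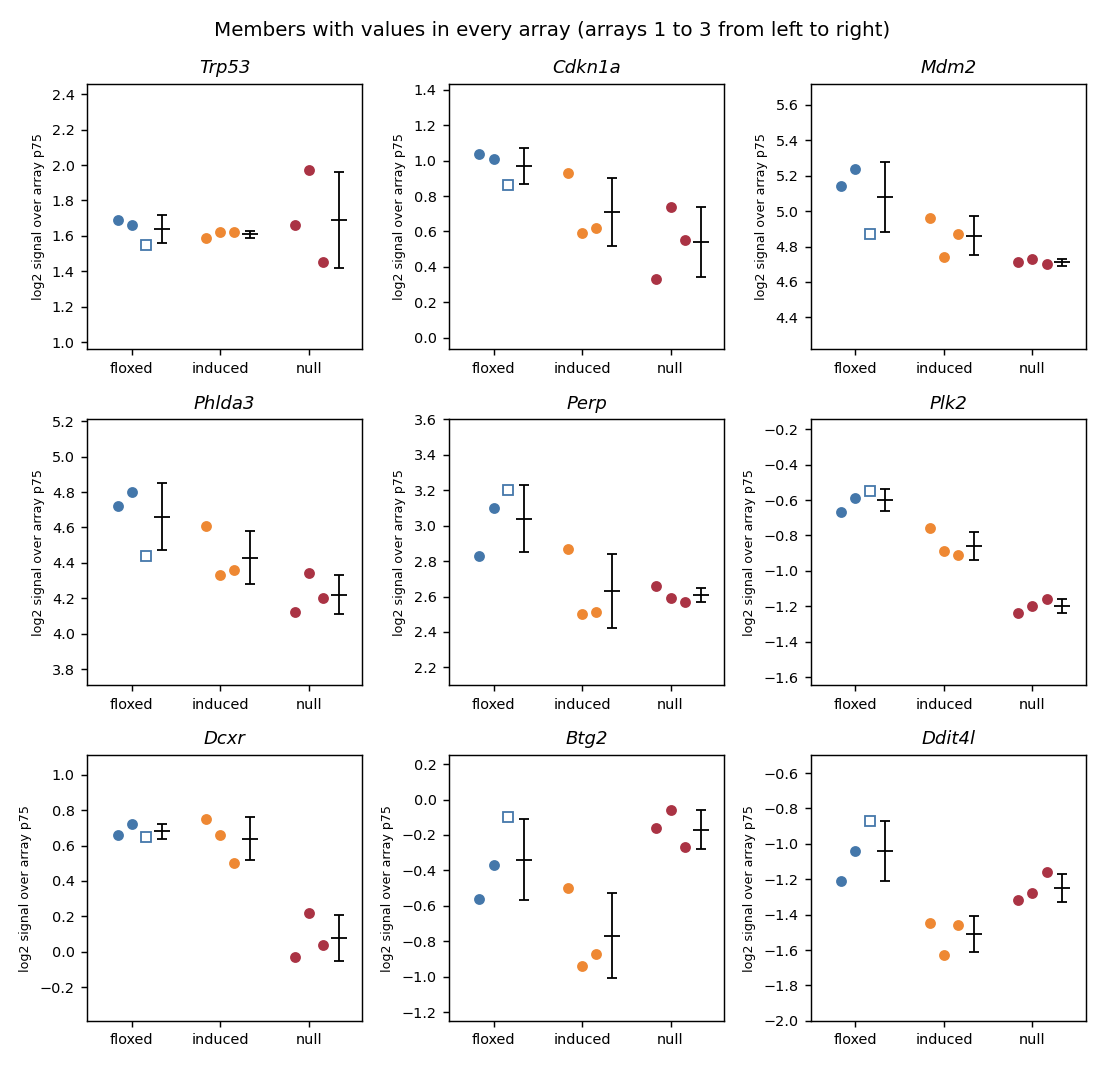
Log2 signal relative to the array's 75th percentile for 9 members. The vertical axis is centred on each gene and has the same span in every panel. Points are arrays, the open square is floxed array 3, and the bar is the mean with its SD (n = 3). Plk2 steps down from floxed to induced to null without overlap, and the null arrays of Dcxr lie below all its other arrays.

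The mitochondrial apoptosis group comprises Bax, Bbc3 (Puma) and Pmaip1 (Noxa), which act on the outer mitochondrial membrane, Apaf1, the core of the apoptosome, and Perp, Ei24 and Aen, further p53-induced death genes. In this group 0 of 7 passed in any comparison, and apart from Perp the null minus floxed differences lay between -0.13 (Bax) and 0.16 (Pmaip1). Bax ranged from 5.46 to 5.97 over all 9 arrays and Aen from 6.24 to 6.51, with overlap of all groups.

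Perp, a membrane protein of desmosomes as well as a p53 target, read 2.83, 3.1 and 3.20 on floxed arrays, 2.87, 2.50 and 2.51 on induced arrays and 2.66, 2.59 and 2.57 on null arrays. The null values were all below the floxed ones, and induced array 1 alone reached into the floxed range. The differences from floxed cells were -0.42 ± 0.14 (SE, adjusted p = 0.661) in induced and -0.44 ± 0.14 (adjusted p = 0.118) in null cells. Here floxed array 3 was the highest, and without it the null difference was -0.36 (adjusted p = 0.0986).

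Of 7 markers of epithelial and trophectoderm cells 6 were measured, and 5 of them fell in null against floxed cells (Krt8, Krt18, Krt19, Cdx2 and Hand1). The other, Epcam, lay higher by 0.09 and did not pass. The summed level of the 6, in units of the array's 75th percentile, was 72.8 to 95 on floxed arrays, 51.9 to 74.1 on induced arrays and 25.2 to 29.0 on null arrays. Elf5 was above background on no array. Of 11 fibroblast markers 7 were measured and 5 fell in null against floxed cells (Col1a1, Twist2, Tagln, Col1a2 and Col3a1), with sums over the 7 of 42.1 to 42.7, 30.6 to 36.3 and 22.8 to 24.2. The others lay higher: Thy1 by 1.37 (adjusted p = 0.104), with every null array above every floxed one, and by 1.92 without floxed array 3 (adjusted p = 0.000142), and Vim by 0.10 (adjusted p = 0.619). Pdgfra, Pdgfrb and Lum were above background on no array. Of 7 blood and endothelium markers 6 were measured and 0 passed by limma. In null against floxed cells 4 of them had an unadjusted p under 0.05, and 5 passed without floxed array 3 (3 higher and 2 lower), where 24.8% of all genes did. Their sums, 21.6 to 36.5, 19.8 to 28.0 and 20.4 to 36.6, overlapped. In bulk RNA fewer cells of a type and less RNA per cell cannot be told apart, and the part of such cells in the differences of Perp, Plk2, Dcxr and the other members was not tested.

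Of the death receptors and surface proteins, Fas, the best known death receptor under p53 control, was well above background on 2 of 9 arrays (processed signal 9.3 to 48.4). Tnfrsf10b (the TRAIL receptor) and Eda2r (a receptor for ectodysplasin) are receptors of the same superfamily, and Cd80 is a costimulatory ligand for T cells. Eda2r read -2.20, -2.22 and -2.02 on floxed arrays, -2.0, -1.77 and -2.20 on induced arrays and -2.26, -2.62 and -2.43 on null arrays. Its null values were the lowest 3, with null minus induced at -0.44 ± 0.14 (SE, adjusted p = 0.114), but the gene's other probe gave -0.13 for null minus induced and 0.07 for null minus floxed. The probes of Cd80 differed in sign as well, 0.23 and -0.21 for null minus floxed. Tnfrsf10b differed by -0.19 over all arrays (adjusted p = 0.359), by -0.33 without floxed array 3 (adjusted p = 0.0160) and by 0.07 on slide 2.

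For DNA synthesis and repair, Polk encodes a translesion polymerase and Rrm2b the p53-induced subunit of ribonucleotide reductase. Polk ranged from -1.85 to -1.11 with all groups overlapping, and null minus floxed was -0.14 ± 0.20 (SE, adjusted p = 0.716). Both probes of Rrm2b were well above background on 0 of 9 arrays, with signals of 5.7 to 11.1.

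In the metabolism group, Dcxr encodes dicarbonyl and L-xylulose reductase. Its probe spans chr11:120587276-120587416 of mm9 on the minus strand, 60 bases over 141 of the genome, and is printed because 2 of the 3 calls rest on it.
Dcxr probe: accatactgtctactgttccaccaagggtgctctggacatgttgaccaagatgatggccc

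Dcxr read 0.66, 0.72 and 0.65 on floxed arrays, 0.75, 0.66 and 0.50 on induced arrays and -0.03, 0.22 and 0.04 on null arrays. The floxed and induced values overlapped and every null value lay below both. Dcxr fell by 0.60 on the log2 scale in null against floxed cells (95% interval -0.84 to -0.36, adjusted p = 0.0313; 0.00716 to 0.316 over the alternatives). It fell by 0.56 against induced cells (95% interval -0.80 to -0.32, adjusted p = 0.0391; 0.00896 to 0.151). On slide 2 alone null minus floxed was -0.60, and on slide 3 alone null minus induced was -0.54. The gene's other probe gave -0.39 ± 0.13 (SE, adjusted p = 0.148 among all probes) and -0.31 for these comparisons, the same direction at a smaller size.

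Sesn1 and Sesn2 encode sestrins, which restrain mTORC1, and Ddit4l (Redd2) is another mTOR inhibitor. Sesn1 read 0.42, 0.37 and 1.10 on floxed arrays, 0.57, 0.63 and 0.58 on induced arrays and 1.13, 0.95 and 0.86 on null arrays. Floxed array 3 lay with the null arrays and away from its own group. Null minus floxed was therefore 0.35 (adjusted p = 0.290) over all arrays, 0.58 without floxed array 3 (adjusted p = 0.00491) and -0.24 on slide 2, while null minus induced on slide 3 alone was 0.44.

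Sesn2 went the other way, with a null minus floxed difference of -0.34 ± 0.15 (SE, adjusted p = 0.221), -0.51 without floxed array 3 (adjusted p = 0.0108) and -0.12 on slide 2. Ddit4l had the largest induced minus floxed difference of any measured member. It read -1.21, -1.04 and -0.87 on floxed arrays, -1.45, -1.63 and -1.46 on induced arrays and -1.32, -1.28 and -1.16 on null arrays. The induced arrays lay below all others, and the difference of -0.47 ± 0.11 (SE) had an unadjusted p of 0.00248 and an adjusted p of 0.465.

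The weight of floxed array 3 was not even over the members. It read lower than both other floxed arrays in 16 members and higher than both in 10, with a median absolute distance of 0.25 from their mean, against 0.11 between floxed arrays 1 and 2. Over all genes the SD of its distance from their mean was 0.492, against 0.284 between floxed arrays 1 and 2, so the distance was not particular to the members. Without floxed array 3, 11 members passed in null against floxed cells, 10 lower (Ccng1, Cdkn1a, Dcxr, Mdm2, Phlda3, Plk2, Sesn2, Tnfrsf10b, Trp53inp1 and Zmat3) and Sesn1 higher. In that fit 24.8% of all genes passed, 11.8% as lower and 13.1% as higher. No slide then held both floxed and null cells, so a slide effect cannot be told apart from the group there. In null against induced cells 5 members passed without floxed array 3 (Btg2, Dcxr, Plk2, Sesn1 and Sesn2), where 18.1% of all genes did. In induced against floxed cells 0 passed, where 0.773% did. With slide as a fixed block 0 members passed in null against floxed cells, where 0.251% of all genes did, and 0 in induced against floxed cells, where 0.874% did. The null minus floxed difference in that fit is null array 3 minus floxed array 3, so it rests on the array that stood apart.

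**Figure D4:**
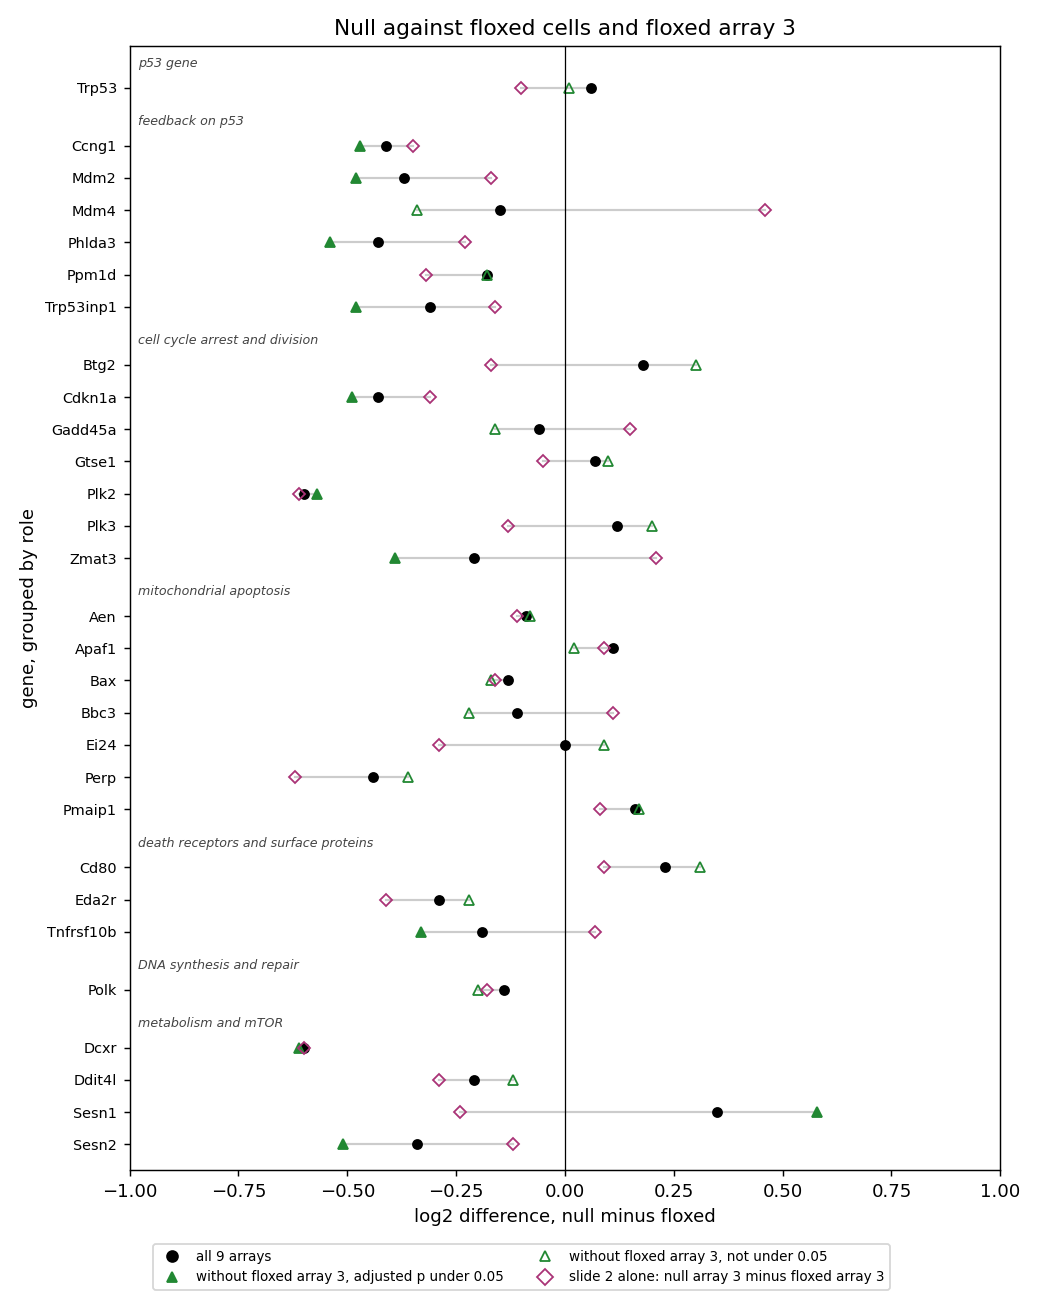
Null minus floxed difference on the log2 scale (horizontal axis) for the 29 measured members over all 9 arrays (circles), without floxed array 3 (triangles, filled where the adjusted p is under 0.05) and on slide 2 alone (diamonds), where it is null array 3 minus floxed array 3. The marks of Plk2 and Dcxr stay within -0.61 and -0.57, while those of Mdm4, Zmat3 and Sesn1 lie on both sides of 0.

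Other genes of the pathway were read from lists outside the members. Of 32 further genes listed as p53 targets 30 were measured, and 0 passed in induced against floxed cells by limma (3 with an unadjusted p under 0.05). The list does not separate genes that p53 raises from others tied to it, and p53 control was not tested. In null against floxed cells 4 fell and 0 rose, where 1.1% of all genes passed as lower, with a median of -0.06 over the 30. Among the 4 were Thbs1 (thrombospondin 1, -2.18, adjusted p = 0.00176) and Xpc, the gene that null cells lack. Cdkn2a (the locus of p16 and Arf) was another (-0.65, adjusted p = 0.0246, or 0.284 with slide as a fixed block and 0.0871 as a random block). Without floxed array 3 the count was 12, 3 higher and 9 lower, where 24.8% of all genes passed; in induced against floxed cells 1 passed, Xpc. Against induced cells 3 fell, among them Thbs1 (-2.19) and Cdkn2a (-0.74), where 1.54% of all genes passed as lower, and 10 passed without floxed array 3, 3 higher and 7 lower, where 18.1% of all genes did. Thbs1 is also made by fibroblasts and other matrix-producing cells, whose markers are given above.

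Of 25 kinases, ligases and cofactors of p53, all measured, Hipk2, a kinase of p53, rose by 0.58 in null cells against floxed cells (limma adjusted p = 0.0440) and by 0.58 against induced cells (adjusted p = 0.0436). No other passed in the main fit, which has no slide term. The call of Hipk2 against floxed cells was lost with slide as a fixed block (0.36, from slide 2 alone, adjusted p = 0.543) or a random block (0.49, adjusted p = 0.219). With the fixed block 7 of the 25 passed in null against induced cells, where 16.3% of all genes did. Atr was lower there, and Chek1, Hipk2, Trp53bp1, Trp53bp2, Ppp1r13l and Trp73 were higher. When floxed array 3 was left out, 9 of the 25 passed in null against floxed cells, 6 higher and 3 lower, where 24.8% of all genes did. In null against induced cells 7 passed so, 6 higher and 1 lower, where 18.1% of all genes did. Of 24 Bcl2 family members and caspases 23 were measured and 0 passed by limma in any comparison of the main fit, with 1, 3 and 5 at an unadjusted p under 0.05 in induced against floxed, null against floxed and null against induced cells. Without floxed array 3 the counts that passed were 0, 7 (4 higher, 3 lower) and 5 (3 higher, 2 lower), where 0.773%, 24.8% and 18.1% of all genes did. With slide as a fixed block they were 1, 0 and 4, where 0.874%, 0.251% and 16.3% of all genes did. Of 20 G2/M genes known to be lowered through p21, 19 were measured and 0 passed by limma in the main fit, with 0, 6 and 1 at an unadjusted p under 0.05, all of them higher. In these comparisons 15, 14 and 14 of the 19 lay above 0, with medians of 0.05, 0.09 and 0.06 beside 0.00, 0.01 and 0.02 over all genes. In null against floxed cells 7 of 19 lay higher without overlap (Cdc25b, Bub1, Birc5, Ccna2, Kif23, Mki67 and Top2a), where 12% of all genes did, and 1 lower (Cenpa). Without floxed array 3 the counts that passed were 0, 5 (4 higher, 1 lower) and 1 (higher), where 0.773%, 24.8% and 18.1% of all genes did. With slide as a fixed block 0, 0 and 2 of the 19 passed, where 0.874%, 0.251% and 16.3% of all genes did, and the null minus floxed median was -0.01.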

How the data were processed

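Spot intensity was read from the deposited scanner files, which come from Agilent Feature Extraction (version 10.7.3.1 in the submitters' processing notes) and hold a linear, background-subtracted and detrended signal not scaled between arrays, per the file headers. In the deposited series matrix the values equal the spots' mean signal, an uncentred intensity; 0 of its columns were left unused. After control and outlier spots were dropped and spots of a probe averaged, each log2 signal had the log2 of its array's 75th percentile subtracted. Kept probes (27536) had to lie well above background throughout at least 1 group, and each gene (19913) was read from its brightest one.

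Groups were taken from the labels. All 3 comparisons came from 1 limma 3.58.1 fit (R 4.3.3; lmFit and eBayes, two-sided) of 3 group means, adjusted by Benjamini-Hochberg across genes, with calls at 0.05. It was tested on simulated data. The members and lists were chosen with earlier results of these data known. Values of every array are given for Trp53, Cdkn1a, Mdm2, members that passed and the 5 largest differences in each comparison; Gadd45a, named with its values besides, was chosen after they were seen. Probe positions are the mm9 ones of the files, and exons were not analysed here. The values of 1 gene of the other lists are not reported here. Alternatives were other scalings, backgrounds, filters and probe rules, slide and replicate blocks, 2 groups alone, and each array left out.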

Additional observations from a re-analysis of the deposited data

How the results depend on the processing

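No member passed in induced against floxed cells under any of the 21 alternatives. In null against floxed cells 2 members passed. The count was 0 with array median scaling, with no filter, with slide as a fixed block, with the replicate block and with only the 2 groups compared, 1 with slide as a random block (Plk2), 10 without the slide 2 arrays, and 0 to 11 when 1 array was left out. Without induced array 2, induced array 3 or null array 3 Plk2 alone passed, and without floxed array 1, floxed array 2, null array 1 or null array 2 the count was 0. With the mean of kept probes Cdkn1a passed in place of Dcxr. That mean takes in the second Cdkn1a probe, which was kept only through the floxed and induced groups. The call thus rests in part on null values that were not well above background. In null against induced cells 1 passed. The count was 0 with array median scaling, no filter, the mean of kept probes and the replicate block, 4 with slide as a fixed block, without the slide 2 arrays and with only the 2 groups, 3 with slide as a random block, and 0 to 5 when 1 array was left out; Dcxr was lost when any array other than floxed array 3 was left out. The cause was not tested. Leaving out the slide 2 arrays was chosen after the data were seen. Replicate numbers did not pair the arrays (correlations of deviations -0.106 to 0.087; 6 of 18 array and group pairs correlated best with their own number), so the replicate block shows only how a shared number moves the counts.

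Signs turned for members that did not pass, most of them near 0. In induced against floxed cells, with slide as a fixed block the differences became 0.61 (Mdm4), -0.05 (Bax), 0.10 (Bbc3), -0.12 (Pmaip1), 0.20 (Gadd45a), 0.35 (Zmat3), 0.25 (Tnfrsf10b) and 0.14 (Sesn2), and with slide as a random block 0.18 (Mdm4), -0.01 (Bax), -0.05 (Pmaip1), 0.06 (Gadd45a), 0.06 (Zmat3), 0.08 (Tnfrsf10b) and 0.02 (Sesn2). Without the slide 2 arrays they became 0.00 (Bax), 0.04 (Plk3) and 0.20 (Sesn1). Other settings gave Polk 0.04 (quantile), 0.00 (array median), 0.04 (normexp) and 0.07 (series matrix), Tnfrsf10b 0.00 (normexp) and 0.01 (series matrix), Sesn2 0.02 (normexp) and 0.03 (series matrix), Eda2r -0.01 (series matrix) and Cd80 0.00 (mean of probes). With 1 array left out the ranges were -0.07 to 0.00 (Trp53), -0.29 to 0.05 (Mdm4), -0.07 to 0.13 (Bax), -0.10 to 0.09 (Pmaip1), -0.12 to 0.14 (Gadd45a), -0.28 to 0.02 (Zmat3), -0.16 to 0.21 (Polk), -0.09 to 0.04 (Plk3), -0.15 to 0.06 (Tnfrsf10b), -0.09 to 0.03 (Dcxr), -0.17 to 0.20 (Sesn1) and -0.18 to 0.10 (Sesn2).

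In null against floxed cells, slide as a fixed block gave -0.10 (Trp53), 0.46 (Mdm4), 0.11 (Bbc3), 0.15 (Gadd45a), -0.29 (Ei24), 0.21 (Zmat3), -0.17 (Btg2), -0.13 (Plk3), 0.07 (Tnfrsf10b), -0.24 (Sesn1) and -0.05 (Gtse1), and as a random block -0.01 (Trp53), 0.10 (Mdm4), 0.03 (Gadd45a) and -0.12 (Ei24); Ei24 was -0.02 with quantile normalization. With 1 array left out Trp53 lay between -0.08 and 0.18, Gadd45a between -0.16 and 0.09 and Ei24 between -0.09 and 0.09. In null against induced cells Ppm1d was 0.02 with slide as a fixed block and without the slide 2 arrays, Bbc3 -0.02 (quantile), -0.03 (normexp) and -0.02 (series matrix), and Aen -0.02 (normexp), -0.01 (series matrix) and -0.01 (mean of probes). With 1 array left out the ranges were -0.05 to 0.21 (Trp53), -0.20 to 0.10 (Mdm4), -0.10 to 0.11 (Bbc3), -0.08 to 0.10 (Perp), -0.04 to 0.10 (Aen), -0.34 to 0.03 (Polk), -0.03 to 0.21 (Cd80) and -0.09 to 0.02 (Ppm1d). Signal over background limits Fas, Rrm2b and the weaker Cdkn1a probes, which have a bound or no level.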
